A study of Mus musculus with 35 samples.

Results

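The mitochondrial respiratory chain genes described here are the nuclear genes whose mouse symbol marks a subunit of complexes I to V, or a complex I assembly factor whose symbol begins in the same way (Ndufa, Ndufb, Ndufc, Ndufs, Ndufv, Sdha to Sdhd, Uqcr, Cyc1, Cox4 to Cox8 and Atp5). The symbol was taken from the accession that the array files give for each probe, and each gene was read from the 1 probe with the highest mean signal. By this rule 94 of the 20886 named genes on the array were members: 36 subunits of complex I, 8 complex I assembly factors (the genes beginning Ndufaf), 4 of complex II, 9 of complex III, 20 of complex IV with its isoforms, and 17 of complex V, the ATP synthase. For 24 members the array carried more than 1 probe, and the members had 125 probes in all.

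The respiratory chain passes electrons from NADH and succinate through complexes I, II and III and cytochrome c to oxygen at complex IV, and complex V uses the proton gradient built on the way to make ATP. Its subunits come from both genomes of the cell, and the nuclear genes described here are transcribed apart from the mitochondrial ones. Complex IV has paired isoforms that differ between tissues, among them Cox4i2 beside Cox4i1, Cox6a2 beside Cox6a1, Cox7a1 beside Cox7a2 and Cox8b beside Cox8a. Memory CD8+ T cells are known for a mitochondrial metabolism that differs from that of newly activated T cells, which is why the level of these genes in cells lodged in a tissue is of interest.

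All RNA came from wild type C57Bl/6 female mice, 8 to 16 weeks old, with no transgene and no treatment. CD8+ T resident memory (Trm) cells had been taken from liver (n = 5), lung (n = 6) and small intestine (n = 6) by magnetic selection for CD8b and then CD103. Circulating T effector memory (Tem) cells (n = 6) had been taken from peripheral blood by selection for CD8b and a further depletion step, and served as the nonresident reference. Unsorted controls were whole liver, whole lung, whole small intestine and whole PBMC from peripheral blood, with 3 samples each. The protocol takes Trm and Tem cells from the same animals, but the labels do not say which array came from which animal or pool, so p-values below measure the spread between these samples. In such bulk RNA, fewer cells of a type and less RNA per cell cannot be told apart.

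Each sample was read on 1 single-colour array, and levels are log2 signals relative to the array's own 75th percentile. That percentile was taken over probes above background on every array compared, 4042 probes for the 23 sorted arrays and 1341 for all 35, so the sorted-cell scale and the all-array scale are separate. Differences were called at a Benjamini-Hochberg adjusted p under 0.05 by limma over all genes tested. A member entered the test where 3 or more arrays of any group read its probe well above background, which held for 85 members among 8569 genes in the sorted cells and for 91 among 10533 genes over all arrays. The 9 members not tested in the sorted cells included Ndufaf5, Ndufaf6, Ndufaf8, Cox4i2, Cox7b2, Cox8b, Cox8c and Ndufa4l2. Of those tested over all arrays, Cox4i2, Cox8b and Ndufa4l2 met this filter only in whole lung, Ndufaf6 only in whole liver and Ndufaf8 only in whole intestine, so these had to be higher there and their differences are given without a test. The isoform genes Cox7b2 and Cox8c were above background on 0 arrays. No member was saturated (0 of 94).

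The share of probes well above background ran from 21.7% to 40.7%, except on liver Trm 3 (12.2%), whole liver 2 (64.6%) and whole PBMC 1 (7.80%). Counts are also given without those 3 arrays and blood Tem 3, an exclusion chosen after the values were seen. Each of the 4 had the lowest median rank correlation within its own group (0.828, 0.729, 0.482 and, for blood Tem 3, 0.846), but not over all arrays: whole PBMC 2 and 3 stood at 0.70 and 0.71. The 8 CD8 T cell markers were all above background on every sorted array, with summed levels of 1.49 to 3.63 on the all-array scale, against -3.74 to -1.54 in the whole organs. No probe was named for Itgae, which encodes CD103. Of 10 hepatocyte markers, 8 to 10 were above background in liver Trm (summed level 1.29 to 4.30), against 10 in whole liver (4.03 to 4.19) and 0 to 3 in blood Tem (-4.45 to -3.38). Trm and Tem arrays lay on other slides than the whole samples, so slide and kind of sample cannot be told apart in any comparison of sorted with whole.

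In the sorted T cells the respiratory chain genes stayed close together across the organs and blood. On the sorted-cell scale the median over the 85 tested members was -1.14 to -0.75 on the blood Tem arrays, and on the Trm arrays -1.39 to -0.75 for liver, -1.49 to -0.61 for lung and -1.25 to -0.78 for intestine. These ranges overlapped in every pair of groups. The lowest lung Trm value belonged to lung Trm 5. Replicate spread was smaller for the members than for all genes: the median SD per member was 0.25 in blood Tem and 0.36, 0.31 and 0.30 in Trm of liver, lung and intestine, and over all genes tested it was 0.63, 0.70, 0.49 and 0.58. Of the 94 members, 71 were well above background on 34 or more arrays, and spread was not compared with that of genes of like signal.

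**Figure D1:**
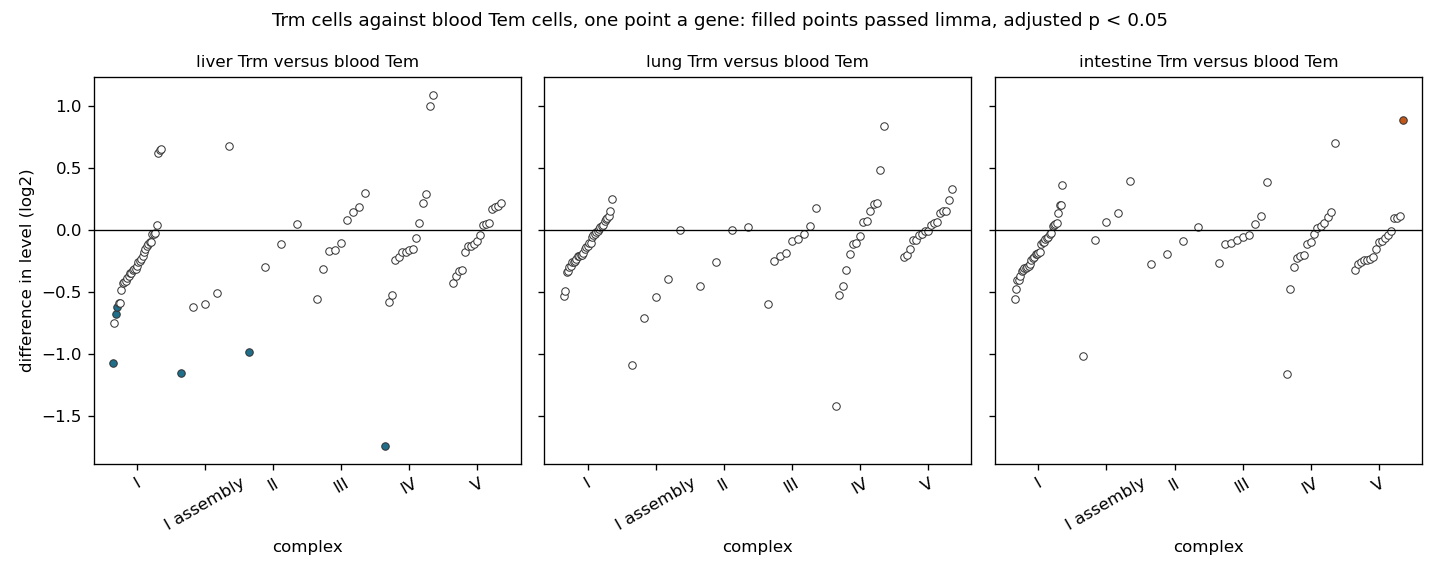
Difference in level (log2) of each of the 85 tested members between each Trm group and blood Tem, arranged by complex, with filled points for differences that passed limma at an adjusted p under 0.05. Most points lie close to 0 in every panel, and the filled ones number 6 in liver Trm, 0 in lung Trm and 1 in intestine Trm.

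The comparison of liver Trm with circulating Tem cells asked which genes differ in resident cells of the liver. None of the 85 members was higher (0) and 6 were lower in liver Trm, against backgrounds of 14.9% of all tested genes higher and 25.3% lower. The 6 were 3 complex I subunits, 1 complex I assembly factor, 1 subunit of complex II and 1 of complex IV, while 0 of 9 members of complex III and 0 of 17 of complex V were called. The median difference over the members was -0.18, beside -0.27 over all genes tested. Which of these medians was the lower depended on the processing: with normexp background correction they were -0.09 and 0.19, and with no filter on dim probes -0.16 and 1.22.

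Cox6b1 encodes a small complex IV subunit that faces the intermembrane space. Its levels in liver Trm were -7.28, -5.83, -5.71, -5.62 and -7.04, and in blood Tem they ran from -5.35 to -4.01 with a median of -4.47. All 5 liver arrays lay under all 6 blood arrays, and the probe was well above background on 0 of 5 liver and 6 of 6 blood arrays. The fitted difference was -1.74 ± 0.43 (SE, adjusted p = 0.00563 by limma), and Cox6b1 was at least 1.38-fold lower in liver Trm when the dim group is set to the detection limit. That bound and all later ones take, on each dim array, the higher of the lowest signal well above background and the probe's own signal.

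Sdha, the flavoprotein of complex II that oxidises succinate, stood at -3.81, -3.66, -4.93, -3.80 and -4.41 in liver Trm. In blood Tem it ran from -3.33 to -2.90 with a median of -3.14. The groups did not overlap, and the difference was -0.98 ± 0.28 (adjusted p = 0.0122, limma). Without liver Trm 3, the lowest array, the adjusted p was 0.0535. The other complex II genes, Sdhb, Sdhc and Sdhd, were not called.

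The 3 complex I subunits lower in liver Trm were Ndufs7, Ndufv2 and Ndufa8. Ndufs7, which carries the last iron-sulfur cluster before ubiquinone, stood at -0.74, -0.51, -0.46, -0.32 and -1.15 in liver Trm and from -0.27 to 0.23 in blood Tem, with no overlap, and differed by -0.62 ± 0.21 (adjusted p = 0.0255, limma). Ndufv2, an iron-sulfur subunit of the NADH-oxidising module, stood at -1.81, -1.75, -1.90, -1.09 and -1.66 against -1.29 to -0.75, and differed by -0.68 ± 0.24 (adjusted p = 0.0282, limma). Here liver Trm 5 fell inside the blood range. Ndufa8, an accessory subunit, ranged from -5.46 to -3.24 in liver Trm and from -4.16 to -2.67 in blood Tem, which overlapped, with a difference of -1.07 ± 0.39 (adjusted p = 0.0339, limma). The assembly factor gene Ndufaf1 was not well above background on any of the 5 liver arrays and was so on all 6 blood arrays, with ranges of -7.18 to -5.04 and -5.54 to -4.70 and a difference of -1.15 ± 0.44 (adjusted p = 0.0396, limma).

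Of these 6 calls, 5 were lost in at least 1 fit that left out a single array. After the 4 arrays were left out, 2 of the 6 remained lower, Cox6b1 (-1.84 ± 0.48, adjusted p = 0.0174, limma) and Ndufs7 (-0.62 ± 0.21, adjusted p = 0.0431), where 6.24% of all genes were higher and 14.8% lower. Leaving out 1 array at a time ended the call of Cox6b1 in 0 cases, of Ndufs7 in 1 (liver Trm 6), of Sdha in 1 (liver Trm 3), of Ndufv2 in 3 (liver Trm 1, 3 and 6), of Ndufa8 in 5 (liver Trm 3 and 6, blood Tem 1, 3 and 5) and of Ndufaf1 in 9. The count over members was 10 without liver Trm 2 (3 higher, 7 lower), liver Trm 5 or lung Trm 5, and 2 without liver Trm 3 or liver Trm 6. With arrays scaled over all probes, 53 members were lower and 0 higher, against 45.2% and 11.2% of all genes, with medians of -0.65 and -0.74. With normexp background correction the split was 4 higher and 2 lower, against 22.7% and 11.4% of all genes, and with no filter 4 higher and 7 lower, against 55.6% and 11.2%. The hepatocyte markers given above were raised on the same liver Trm arrays, and their part in these differences was not tested.

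Lung Trm and blood Tem differed in none of the 85 members (0 higher, 0 lower), where 2.07% of all genes were higher and 0.98% lower in lung Trm by limma. At an unadjusted p under 0.05 there were 5 members, all lower in lung Trm. The count was 0 in each of the other settings tried and with each array left out. The median difference was -0.08, beside -0.10 for all genes, and for 75 of the 85 members the 95% interval of the difference lay within 2-fold in either direction. The core subunits show how narrow this was: Cox4i1, the main form of complex IV subunit 4, differed by 0.06 with an interval from -0.27 to 0.39, and Atp5b, the catalytic beta subunit of ATP synthase, by -0.08 with an interval from -0.43 to 0.27. Ndufs1, the large iron-sulfur subunit of complex I, differed by -0.01 with a wider interval from -0.61 to 0.60.

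Intestine Trm and blood Tem differed in 1 member, which was higher in intestine Trm, with 0 lower, against 7.92% of all genes higher and 9.56% lower. The member was Atp5md, which encodes a small membrane subunit of ATP synthase. Atp5md stood at -0.59, -1.09, 0.00, 0.21, -0.11 and -0.60 in intestine Trm, and from -1.53 to -0.87 with a median of -1.29 in blood Tem. Only the lowest intestine array, intestine Trm 2, fell among the blood arrays. The difference was 0.89 ± 0.21 (adjusted p = 0.00629, limma), kept with each array left out, and lost under scaling over all probes, where 5 members were lower and 0 higher. The count rose to 3 without intestine Trm 3 or 5, and to 2 without liver Trm 1, lung Trm 5, or blood Tem 2 or 6. Over the members the median difference was -0.10, beside -0.03 for all genes, and 74 of 85 intervals lay within 2-fold.

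Among the 3 Trm groups the members differed little. Lung Trm against liver Trm gave 3 higher and 1 lower, where 9.30% of all genes were higher and 8.68% lower; without the 4 arrays it gave 2 and 2, where the shares were 7.30% and 9.80%. Sdha was higher in lung Trm by 1.01 ± 0.28 (adjusted p = 0.0244, limma), with lung Trm at -2.85, -2.82, -3.05, -2.93, -4.22 and -2.81. Lung Trm 5 alone lay among the liver arrays given above. Cox6b1 was higher by 1.29 ± 0.43 (adjusted p = 0.0434), at least 1.01-fold, and Ndufb5, an accessory subunit of complex I, by 0.53 ± 0.18 (adjusted p = 0.0477). The Ndufb5 call was lost in 18 of the fits that left out 1 array, and the Cox6b1 call in 10. The count over members was 11 without lung Trm 5 (10 higher, 1 lower), 9 without liver Trm 2, 0 without liver Trm 6, 1 without liver Trm 3 or 5 or lung Trm 2 or 6, and 2 without lung Trm 1 or 3 or blood Tem 4. Scaling over all probes gave 28 higher and 1 lower, against 33.3% and 7.26% of all genes, and the deposited values 11 and 2, against 25.4% and 14.3%. The balance turned with normexp, which gave 0 higher and 3 lower against 2.19% and 18.9%, and with no filter, which gave 3 and 6 against 5.95% and 45.2%.

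The member lower in lung Trm was Ndufaf7, which encodes a methyltransferase that acts on a complex I subunit during assembly. Its levels were -3.17, -3.38, -3.44, -1.95, -4.01 and -4.33 in lung Trm and -1.36, -2.44, -2.06, -0.96 and -1.23 in liver Trm. Lung Trm 4 was the only lung array within the liver range. The difference was -1.77 ± 0.50 (adjusted p = 0.0251, limma), and it was lost without liver Trm 5, liver Trm 6 or lung Trm 6, with adjusted p up to 0.0771. Ndufaf7 was higher in intestine than in lung Trm by 1.48 ± 0.48, which missed the threshold (adjusted p = 0.0550) and passed it without the 4 arrays (1.44 ± 0.43, adjusted p = 0.0285).

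Intestine against liver Trm gave 1 member higher and 0 lower, against 8.64% and 2.84% of all genes. It was again Atp5md, higher by 0.84 ± 0.22 (adjusted p = 0.0173, limma), a call lost without liver Trm 3 (adjusted p = 0.0789). Leaving out liver Trm 2 or lung Trm 5 gave 2. Intestine against lung Trm gave 0 in either direction by limma, against 5.08% higher and 4.24% lower for all genes, with 6 members at an unadjusted p under 0.05, 3 in each direction. In that pair the deposited values gave 4 members lower, leaving out blood Tem 3 gave 3 higher, lung Trm 5 gave 2, and lung Trm 4 or intestine Trm 2 or 5 gave 1. These comparisons share groups with each other and with those against blood Tem.

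The medians of the whole organs lay apart, while those of the sorted groups overlapped on the all-array scale as well. There the sorted medians ran from -2.55 to -1.68 in liver Trm and from -2.57 to -1.20 in lung Trm. They ran from -2.12 to -1.32 in intestine Trm and from -1.98 to -0.93 in blood Tem. On the all-array scale the median over the 91 tested members was -0.88, -0.79 and 0.44 in the 3 whole intestine samples, -1.38 to -1.32 in whole liver, and -2.38 to -2.07 in whole lung. Whole intestine lay highest and whole lung lowest of the 3 organs, with no overlap between them. The same order held in complexes I, II, III, IV and V: the complex II median, for example, was -1.27 to -0.77 in whole intestine, -1.74 to -1.58 in whole liver and -3.40 to -3.09 in whole lung. It did not hold for the complex I assembly factors. Their median was -5.65 to -4.56 in whole intestine and -5.39 to -4.34 in whole liver, which overlapped, and -6.74 to -6.16 in whole lung. Whole PBMC stood at -7.59, -2.55 and -3.18, and on its first array 11 of 91 members were well above background.

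**Figure D2:**
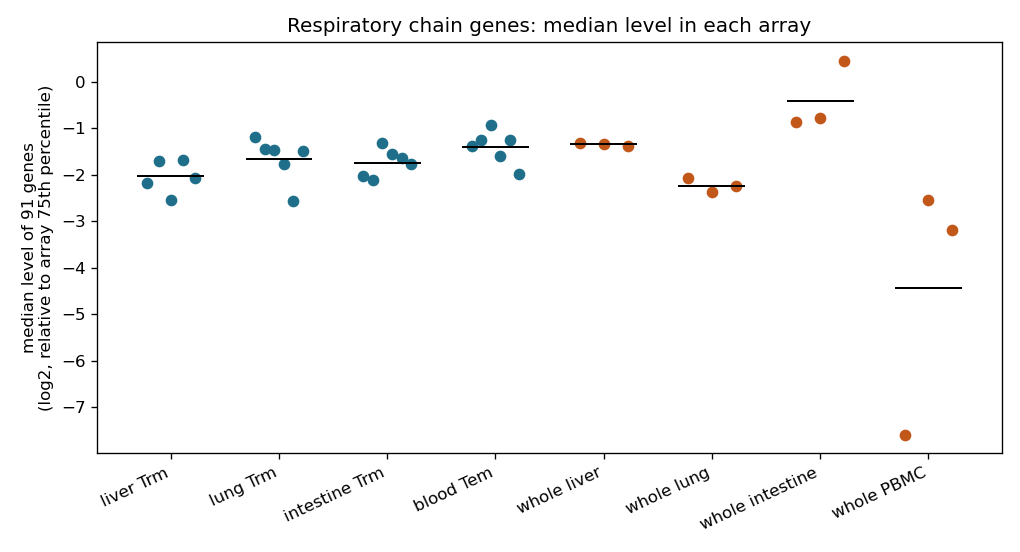
Median level (log2, relative to the array's 75th percentile) of the 91 tested members on each array, 1 point an array, in the 8 groups. Whole intestine lies highest, from -0.88 to 0.44, whole lung from -2.38 to -2.07, and whole PBMC 1 stands alone at -7.59.

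Whole intestine exceeded whole lung in 42 of 91 members and was lower in 4, against 12.7% and 11.9% of all genes, and 3 of the 4 met the filter only in whole lung. The median difference was 1.66, beside -0.06 for all genes. All 4 complex II subunits were higher, with 14 of 36 subunits of complex I, 1 of 7 assembly factors, 5 of 9 of complex III, 8 of 18 of complex IV and 10 of 17 of complex V. Sdhd, a membrane anchor of complex II, stood at a median of -0.84 and a highest value of -0.66 in whole intestine and at -3.11, -3.54 and -3.26 in whole lung. The groups lay well apart, by 2.47 ± 0.45 (adjusted p = 6.27e-05, limma). Uqcrc1, a core protein of complex III, was higher by 2.96 ± 0.60 (adjusted p = 0.00023), and Atp5o, the stalk subunit that confers oligomycin sensitivity on ATP synthase, by 2.78 ± 0.46 (adjusted p = 1.26e-05). With the 4 arrays left out 67 members were higher and 4 lower, against 14.6% and 24.2% of all genes, and 44 of the 46 first calls were kept. Leaving out whole intestine 3, the highest of its group, gave 17 members in all, whole lung 2 gave 22 and whole lung 3 gave 27.

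Whole liver exceeded whole lung in 14 members and was lower in 5, against 10.9% and 11.9% of all genes, with a median of 0.81 beside 0.07. Of these, 1 of the 14 met the filter only in whole liver and 3 of the 5 only in whole lung. Ndufa10, an accessory complex I subunit, stood at -6.51, -4.44 and -5.84 in whole liver and -7.95, -8.94 and -7.43 in whole lung, where it was above background on 0 of 3 arrays. It was at least 2.91-fold higher in whole liver (2.51 ± 0.56, adjusted p = 0.000806, limma). The assembly factor gene Ndufaf6 stood at -5.72, -5.28 and -5.68 in whole liver and at -9.41, -9.14 and -7.95 in whole lung, with 0 of 3 lung arrays above background. It was at least 2.99-fold higher, with no test. With the 4 arrays left out, 41 were higher and 5 lower, against 8.52% and 20.2% of all genes, with 18 of 19 calls kept. Leaving out whole PBMC 1 gave 51 in all, whole liver 2 or 3 gave 9 and 11, and whole lung 1, 2 or 3 gave 10, 5 and 9. Scaling over all probes gave 5 higher and 5 lower and moved the median of all genes to -0.43, with the members' median at 0.32.

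Whole liver and whole intestine differed in 2 members, both of complex V and both lower in liver (0 higher), against 16.5% higher and 14.0% lower for all genes. Atp5o stood at -3.03, -2.80 and -3.40 in whole liver and -1.74, -1.64 and -0.20 in whole intestine, which did not overlap, and differed by -1.89 ± 0.46 (adjusted p = 0.00198, limma). The other was Atp5md, at -1.86 ± 0.67 (adjusted p = 0.0327). The median over members was -0.75, beside 0.08, and 60 of 91 members had all 3 liver values under all 3 intestine values, as did 25.3% of all genes. Leaving out the 4 gave 14 lower and 0 higher, against 16.9% and 13.8% of all genes. Scaling over all probes gave 27 lower and 0 higher, against 20.9% and 9.40% of all genes. With normexp 19 were lower and 2 higher, against 15.5% and 23.2%, and with no filter 2 and 2, against 7.81% and 30.4%. Leaving out whole PBMC 1 gave 15 in all, 13 lower and 2 higher, and leaving out whole liver 3 or whole intestine 3 gave 1.

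Set against their organ of origin, sorted cells had mostly lower members among those called in intestine and liver, and more higher than lower in lung. With all arrays, the share of members called lower was above that of all genes in intestine but below it in liver. In lung the shares called higher and lower were both below those of all genes. Intestine Trm had 32 of 91 members lower than whole intestine and 0 higher, against 20.0% and 11.7% of all genes, with a median of -1.15 beside -0.01, and 2 of the 32 met the filter only in whole intestine. The lower members were spread over all complexes: 10 of 36 in complex I, 3 of 7 assembly factors, 3 of 4 in complex II, 4 of 9 in complex III, 7 of 18 in complex IV and 5 of 17 in complex V. Sdhd ranged from -3.53 to -2.42 in intestine Trm, below all 3 whole intestine values given above, and differed by -2.28 ± 0.39 (adjusted p = 1.88e-05, limma). Ndufc1, an accessory complex I subunit, ran from -3.69 to -2.34 in intestine Trm against -1.19, -1.24 and 0.00 in whole intestine. These did not overlap, and the difference was -2.17 ± 0.51 (adjusted p = 0.00103). Uqcr11, a small complex III subunit, differed by -2.20 ± 0.58 (adjusted p = 0.00332).

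Without the 4 arrays 72 of 90 members were lower in intestine Trm than in whole intestine, including all of the 32, and 0 were higher, against 26.6% and 21.7% of all genes. Leaving out whole intestine 3 left 9, and leaving out whole PBMC 1, which takes no part in the contrast but enters the shared variance and the scale, gave 73. Leaving out intestine Trm 1, 2 or 6, lung Trm 6 or whole intestine 2 gave 21 each. The 9 enterocyte markers were above background on all whole intestine arrays, with summed levels of 3.13 to 4.44, against -3.88 to -0.53 in intestine Trm, where 1 to 4 were above background and Apoa4, Lct and Alpi were not on any array. Their part in the difference was not tested.

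Liver Trm had 15 members lower than whole liver and 1 higher, against 23.8% and 8.59% of all genes, with a median of -0.58 beside -0.33, and 1 of the 15 met the filter only in whole liver. Complex II had the largest share lower, 3 of 4, and complex V had 0 of 17. Sdhd ranged from -4.08 to -2.38 in liver Trm against -1.73, -1.77 and -1.70 in whole liver, with no overlap, and differed by -1.56 ± 0.41 (adjusted p = 0.00284, limma). Ndufaf1 had a median of -7.02 and a highest value of -5.91 in liver Trm, above background on 0 of 5 arrays, against -4.50, -4.05 and -3.77 in whole liver. It was at least 3.35-fold lower (-2.90 ± 0.53, adjusted p = 4.97e-05). The member that was higher was Cox7a2l, a complex IV supercomplex factor also called SCAF1, at 0.47, 1.09, 0.20, 0.00 and 0.70 in liver Trm and -0.81, -0.84 and -1.04 in whole liver. The groups lay apart by 1.39 ± 0.50 (adjusted p = 0.031), a call lost in 5 of the fits that left out 1 array.

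Without the 4 arrays 47 of 90 members were lower in liver Trm than in whole liver and 2 were higher, against 25.8% and 13.9% of all genes, with 14 of the 16 first calls kept. Leaving out whole PBMC 1 alone gave 62 in all. Leaving out whole liver 1, 2 or 3 gave 9, 8 and 5, and leaving out liver Trm 3 or liver Trm 6 gave 10 and 9. Scaling over all probes gave 8 lower and 2 higher. The hepatocyte markers, which were above background in liver Trm as well as in whole liver, were themselves lower in liver Trm for 4 of 10 genes (median -1.85), and their part in these counts was not tested.

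In the lung the balance differed: 10 members were higher than in whole lung and 6 lower, against 15.7% and 25.6% of all genes, with a median of 0.55 beside 0.09. The 10 that were higher belonged to complexes I (4), III (1), IV (2) and V (3). Ndufa10 ran from -6.62 to -5.48 in lung Trm, above all 3 whole lung values given above, and was at least 2.41-fold higher (2.24 ± 0.48, adjusted p = 0.000268, limma). Cox7a2l ran from 0.61 to 1.08 against -0.61, -0.93 and -0.62, a difference of 1.53 ± 0.49 (adjusted p = 0.0105). Of the 6 that were lower, 5 were complex IV isoforms or relatives, described with the isoforms, 3 of which met the filter only in whole lung, and the other was Ndufaf7. Without the 4 arrays 21 were higher and 12 lower, against 17.0% and 36.2% of all genes, with 15 of 16 calls kept, and the median moved to 0.14 beside -0.33. Leaving out whole lung 2 gave 5 in all, whole lung 3 gave 8 and whole PBMC 1 gave 27, the last split 13 higher and 14 lower. The deposited values gave 20 higher and 7 lower, against 18.1% and 24.2% of all genes, and scaling over all probes 17 and 6, against 21.0% and 24.8%. The 6 lung epithelial markers read had summed levels of -4.47 to 2.91 in lung Trm, where 3 to 6 were above background, and 2.44 to 2.87 in whole lung. Summed levels of the 8 monocyte and macrophage markers were -2.31 to 1.91 in lung Trm and -0.39 to -0.21 in whole lung, and those of the 5 neutrophil markers -2.20 to 0.61 and -4.60 to -2.23. C1qa, Ngp and Ltf were not above background on any lung Trm array. The part of these cells in the differences was not tested.

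**Figure D3:**
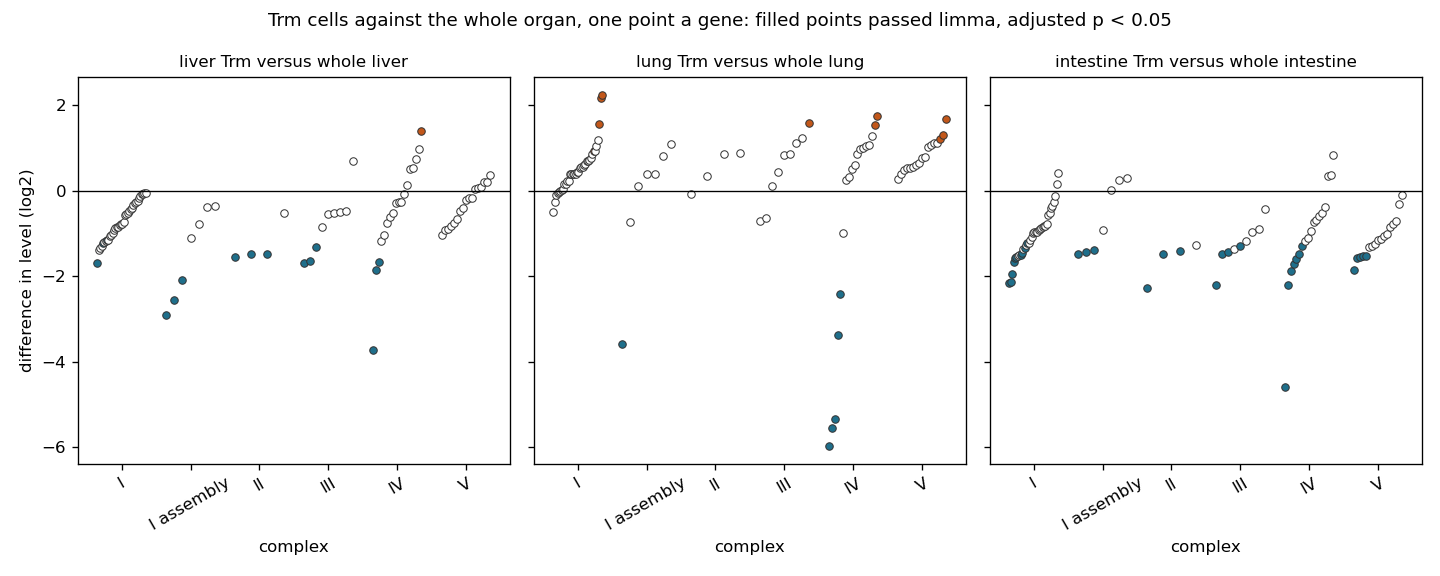
Difference in level (log2) of each of the 91 tested members between Trm cells and the whole organ they came from, arranged by complex, with filled points for differences that passed limma at an adjusted p under 0.05. Intestine Trm has 32 filled points, all below 0, liver Trm has 15 below and 1 above, and lung Trm has 10 above and 6 below.

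The differences between Trm and organ were themselves compared between organs, a contrast added after the values were seen. Between intestine and lung the difference of differences was lower for 28 members and higher for 4, against 9.67% and 12.0% of all genes, with a median of -1.58 beside 0.05. Between liver and lung it was lower for 12 and higher for 4, against 8.54% and 7.14% of all genes, with a median of -1.13 beside -0.31. Between intestine and liver it was lower for 1 and higher for 0, against 6.75% and 7.62% of all genes. Cox6b1 had the most negative value between intestine and lung, -3.94 ± 0.78 (adjusted p = 0.00026, limma). In both contrasts with lung, 3 of the 4 higher members were those that met the filter only in whole lung. Without the 4 arrays 64 were lower and 5 higher between intestine and lung, against 12.8% and 24.8% of all genes. Between liver and lung the counts were then 34 and 5, against 7.40% and 13.4%, and between intestine and liver 8 and 0, against 10.5% and 8.96%. Each of these contrasts holds the difference between the whole organs as well as that between the Trm groups.

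Blood Tem exceeded whole PBMC in 80 of 91 members and was lower in 2, against 44.2% and 11.4% of all genes, with a median of 2.91 beside 0.86. Much of this size came with 1 array: whole PBMC 1, on which most members were not above background, read Cox4i1 at -6.81 where the other 2 read -0.73 and -1.22. Without whole PBMC 1 the count was 39 higher and 2 lower. Leaving out the 4 it was 46 higher and 2 lower, against 14.4% and 15.8% of all genes, with a median of 0.68 beside -0.20. Sdha was one that remained in both. Its blood Tem levels ran from -4.05 to -2.73 on this scale against -7.58, -4.73 and -6.09 in whole PBMC, a difference of 2.59 ± 0.51 (adjusted p = 9.96e-05, limma). Sdhd did not remain: 1.65 ± 0.39 (adjusted p = 0.000688) with all arrays, and an adjusted p of 0.69 without whole PBMC 1. The 5 erythroid markers had summed levels of 0.68 to 2.69 in whole PBMC and -4.48 to -0.07 in blood Tem. For the 5 neutrophil markers these were -4.39 to 1.15 and -7.76 to -1.32, and for the 4 B cell markers -4.02 to 0.87 and -3.12 to -1.31. Ngp, Ltf and Cd79a were not above background on any array of either group, and the part of these cells in the counts was not tested.

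Some complex IV isoforms were read above background mainly in whole lung. Cox4i2, the isoform of subunit 4 known from lung, stood at -3.09, -2.91 and -2.83 in whole lung. It was above background on 0 arrays of liver Trm, lung Trm, blood Tem, whole liver and whole PBMC, on 1 of 3 whole intestine arrays and on 2 of 6 intestine Trm arrays (-4.34 and -4.72). Every whole lung value lay above every other array. Cox4i2 was at least 13.8-fold lower in lung Trm than in whole lung and at least 11.7-fold lower in whole liver, with no test. Its partner Cox4i1 stood at -0.59, -0.75 and -0.72 in whole lung and from -0.18 to 0.41 in lung Trm, with a difference of 0.86 ± 0.65 (adjusted p = 0.324, limma) that became 0.46 ± 0.17 (adjusted p = 0.0248) without the 4 arrays. It was above background on every array but whole PBMC 1.

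Ndufa4l2, a relative of the complex IV subunit gene Ndufa4 that is known to respond to hypoxia, followed the same pattern. It stood at -3.44, -3.30 and -3.43 in whole lung and was above background on 0 of 6 lung Trm arrays, 1 of 3 whole liver arrays and 2 of 3 whole intestine arrays. It was at least 10.2-fold lower in lung Trm than in whole lung, with no test. Cox8b, the muscle-type form of subunit 8, stood at -4.94, -5.02 and -6.33 in whole lung and was above background on 1 array outside it, in liver Trm. It was at least 2.47-fold lower in lung Trm, again with no test. Cox6a2, the muscle-type form of subunit 6a, stood at -2.59, -2.81 and -3.16 in whole lung, against -6.92 to -2.18 in lung Trm, where 1 array overlapped (-2.42 ± 0.72, adjusted p = 0.00629, limma). The Cox6a2 call was kept with each array left out. With any 1 whole lung array left out, Cox4i2, Ndufa4l2 and Cox8b no longer met the filter.

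Markers of cardiac muscle were highest in whole lung, as was Cox8b. Cox6a2 was lower in whole liver than in whole lung, by -2.88 ± 0.83 (adjusted p = 0.00937, limma). It was also lower in whole intestine than in whole lung, by -3.19 ± 0.83 (adjusted p = 0.00344, limma). Its probe was still above background on 3 of 3 whole liver and 3 of 3 whole intestine arrays. Cox7a1, described next, read higher on every whole intestine array than on any whole lung array, but limma did not call that difference. Of the 9 cardiac markers, 7 to 8 were above background in whole lung, with summed levels of -1.02, -0.27 and 0.06 from lowest to highest, and Ryr2 was not above background on any lung array. Every array of the other groups had a summed level of -1.57 or lower. Smooth muscle markers were higher in whole intestine (0.79 to 1.81) than in whole lung (0.43 to 0.78). The part of either marker list in the isoform levels was not tested.

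Cox7a1, the muscle-type form of subunit 7a, behaved unlike its relatives. It stood at -0.65, -0.47 and -0.83 in whole liver, -0.76, -0.67 and -0.38 in whole lung, 0.08, -0.26 and 0.53 in whole intestine and 0.62, -1.16 and -1.36 in whole PBMC. In sorted cells the highest array of any group was -2.21 and the lowest -9.21. All 12 whole samples lay above all 23 sorted arrays, a pattern held by 30 of 10529 genes (0.285%) of which Cox7a1 was the only member. Cox7a1 was lower in each sorted group than in its whole sample, by -3.73 ± 0.92 in liver, -5.98 ± 0.89 in lung, -4.60 ± 0.89 in intestine and -4.35 ± 0.89 in blood (adjusted p of 0.00169, 1.72e-06, 0.000101 and 0.000162 by limma). On the sorted-cell scale it was also the member with the widest replicate spread in liver Trm, intestine Trm and blood Tem, while on the all-array scale Cox4i2 was the widest in intestine Trm.

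Ndufaf7 shared this pattern in part. It stood at -0.30, -0.32 and -0.31 in whole liver, -0.50, -0.38 and -0.22 in whole lung, -0.62, -0.88 and -1.83 in whole intestine, and 0.92, -0.83 and -0.72 in whole PBMC. Lung Trm was lower than whole lung by -3.59 ± 0.53 (adjusted p = 1.64e-06, limma) and blood Tem lower than whole PBMC by -2.48 ± 0.53 (adjusted p = 0.000262). Within the sorted groups Ndufaf7 and Cox7a1 had the same highest and the same lowest array in all 4 groups, 8 of 8 extremes. That was so for 118 of the 8565 genes compared with Cox7a1, Ndufaf7 being the only member among them, and the next members shared at most 4. The 118 also included olfactory receptor genes (Olfr220, Olfr495, Olfr770 and Olfr860), so the shared extremes were not particular to mitochondrial genes. Whether the 2 probes read only their own transcripts was not tested. On whole PBMC 1, where the members' median was -7.59, these 2 genes read 0.62 and 0.92.

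**Figure D4:**
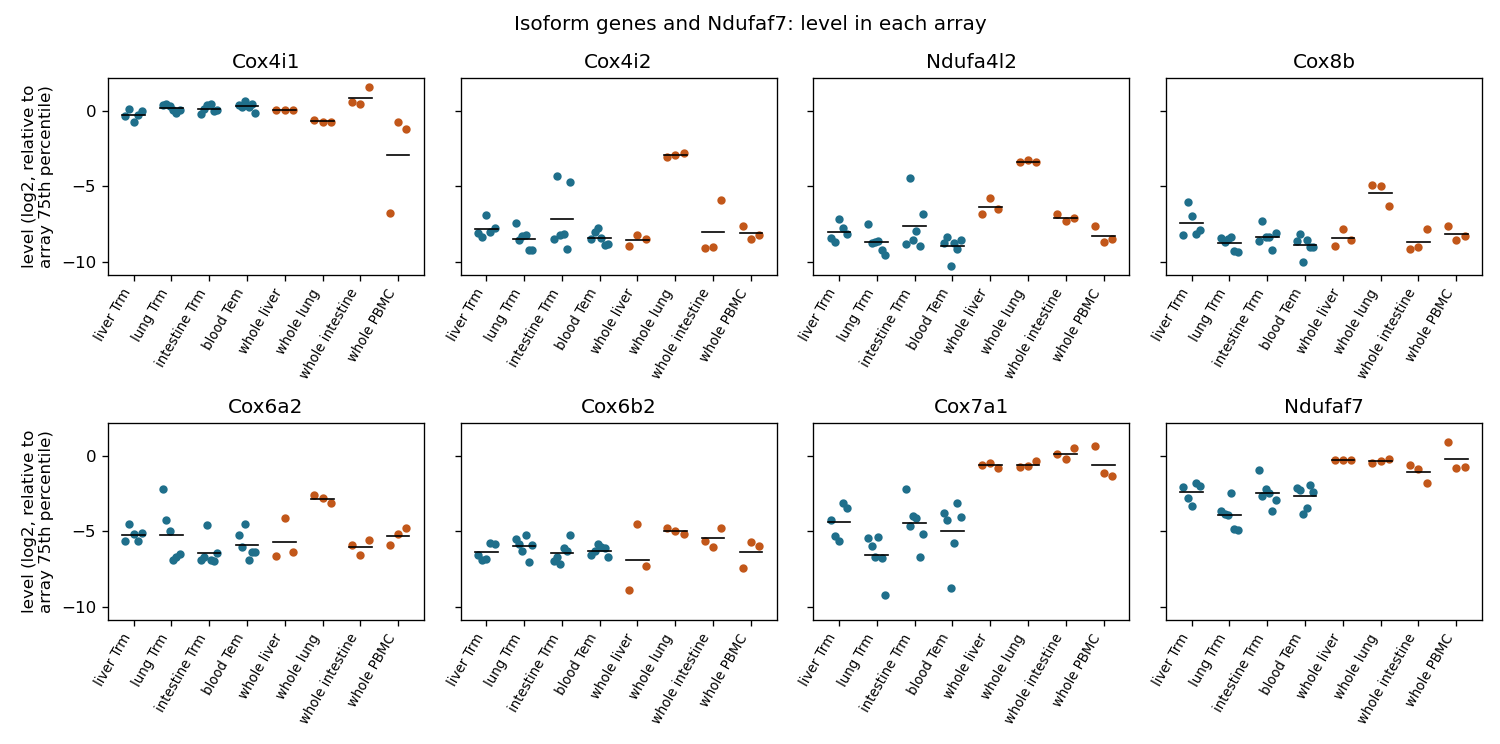
Level (log2, relative to the array's 75th percentile) of the isoform genes and Ndufaf7 in each of the 35 arrays by group, 1 point an array. Cox4i2, Ndufa4l2 and Cox8b are highest in the 3 whole lung samples, Cox4i1 is similar in most groups apart from whole PBMC 1, and all 12 whole samples lie above all sorted arrays in Cox7a1.

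Promoters of 4 isoform genes are shown because the ubiquitous forms Cox6a1 and Cox8a were detected in every group while of the muscle-type forms Cox7a1 was lower in each sorted group than in its whole sample and Cox8b was read above background mainly in whole lung. RefSeq windows that run from upstream of the start into the first bases of the gene (build GRCm38.p6) were at hand for 76 members, with none for Cox4i1, Cox4i2, Cox6a2 or Ndufa4l2. Capitals mark matches, on either strand, to the core letters of NRF1 (GCATGCG), the ETS factor GABPA (CCGGAAG), SP1 (GGGCGG) and the TATA box (TATAAA), and of YY1 (AAGATGG), which had none in these 4. In Cox6a1 the GCATGCG matches of both strands overlap. The windows are Cox6a1 at chr5:115348909-115349208 (minus strand), Cox8a at chr19:7217567-7217866 (minus), Cox8b at chr7:140900397-140900696 (minus) and Cox7a1 at chr7:30183921-30184220 (plus), each 5′ to 3′ along its gene.
Cox6a1: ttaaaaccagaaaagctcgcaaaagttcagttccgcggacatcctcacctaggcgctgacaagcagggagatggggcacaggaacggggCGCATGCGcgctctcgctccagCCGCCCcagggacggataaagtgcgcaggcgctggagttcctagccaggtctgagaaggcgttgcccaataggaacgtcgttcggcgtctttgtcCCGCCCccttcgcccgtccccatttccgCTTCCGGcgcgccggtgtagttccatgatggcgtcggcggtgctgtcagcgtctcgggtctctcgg
Cox8a: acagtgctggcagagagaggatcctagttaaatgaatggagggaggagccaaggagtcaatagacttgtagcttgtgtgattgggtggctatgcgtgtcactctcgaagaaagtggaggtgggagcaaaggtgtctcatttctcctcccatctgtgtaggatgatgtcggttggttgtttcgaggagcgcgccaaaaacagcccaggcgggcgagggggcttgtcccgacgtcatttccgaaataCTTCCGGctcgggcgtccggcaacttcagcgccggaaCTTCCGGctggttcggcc
Cox8b: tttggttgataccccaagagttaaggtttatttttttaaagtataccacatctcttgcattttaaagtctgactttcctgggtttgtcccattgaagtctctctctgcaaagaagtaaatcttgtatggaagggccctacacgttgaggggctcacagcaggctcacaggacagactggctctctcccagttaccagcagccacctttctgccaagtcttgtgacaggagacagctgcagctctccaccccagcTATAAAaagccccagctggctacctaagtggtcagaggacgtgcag
Cox7a1: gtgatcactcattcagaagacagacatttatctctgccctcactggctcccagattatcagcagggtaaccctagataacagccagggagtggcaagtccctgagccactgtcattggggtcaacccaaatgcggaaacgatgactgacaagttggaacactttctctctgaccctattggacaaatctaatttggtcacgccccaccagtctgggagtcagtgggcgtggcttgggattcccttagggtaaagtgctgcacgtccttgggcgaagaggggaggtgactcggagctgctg

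The ubiquitous Cox6a1 window held 2 NRF1, 1 ETS and 2 SP1 matches and the Cox8a window 2 ETS matches, while the muscle-type Cox8b window held 1 TATA match and the Cox7a1 window none. The windows of Cox7a2, the partner of Cox7a1, and of Ndufa4 are not shown. Cox7a2 held 1 SP1 match only and Ndufa4 none, so the 4 windows do not stand for ubiquitous and muscle-type forms in general. Over the 81 windows of members the NRF1 core was found in 13 (16.0%), against 3.58% of all 32851 promoter windows. The ETS core was found in 19 (23.5%) against 8.86%, the YY1 core in 12 (14.8%) against 6.34%, the SP1 box in 36 (44.4%) against 35.7% and the TATA box in 9 (11.1%) against 13.6%. The members' windows had a median GC content of 58.3%, against 52.7% for all windows. By complex, the NRF1 core stood in 3 of 34 windows of complex I and 4 of 18 of complex V, and the YY1 core in 7 and 3 of them. A match describes letters in the window only.

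Genes that work beside the chain were read from lists of the same kind. Only some comparisons are given for each list. The counts are from the main fits with all arrays and were not taken under other settings, so how they depend on the processing was not tested. Of 70 tested mitochondrial ribosomal protein genes, which build the ribosome that translates the subunits encoded in mitochondria, 34 were lower in liver Trm than in blood Tem and 0 higher (median -0.61, beside -0.27), against 25.3% and 14.9% of all genes, and 7 were higher in lung than in liver Trm, against 9.30% of all genes. Of 15 genes of the citric acid cycle and pyruvate dehydrogenase, which feed NADH and succinate to the chain, 11 were lower in intestine Trm than in whole intestine (median -1.50, beside -0.01), against 20.0% of all genes, and 9 were higher in whole intestine than in whole lung (1.88, beside -0.06), against 12.7%. Of 27 assembly and maturation factors outside the symbol rule, 12 were lower in liver Trm than in whole liver (median -1.32, beside -0.33), against 23.8% of all genes. Of 8 genes for electron carriers and ATP exchange, 3 were lower in liver Trm than in blood Tem, against 25.3% of all genes, and 3 higher in lung than in liver Trm, against 9.30%. Of the regulators of mitochondrial gene expression, 8 were tested in the sorted cells, and 1 was higher and 2 lower in liver Trm than in blood Tem, shares near those of all genes (14.9% and 25.3%).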

How the data were processed

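RNA of 35 samples was amplified, labelled with Cy3 and read on single-colour Agilent arrays. The intensity values are the processed signals that the authors deposited in the scanner files: background-subtracted, per the file headers, and not normalized between arrays. The submitters' processing notes name Agilent Feature Extraction 10.7 and Partek. The authors also deposited a table of log2 values, whose normalization is not given in the sources used here. It matched a quantile normalization of the same signals to within 0.000764 (largest median absolute difference per array) and served as an alternative.

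Here log2 signals were centred on each array's 75th percentile over probes above background on every array of the fit. Control spots and outlier-flagged spots were left out. The members' and other genes' names came from RefSeq through the probes' accessions (27508 of 39429 probes, 20886 genes). A gene was tested where 3 or more arrays of any group read it well above background. limma 3.58.1 in R 4.3.3 (lmFit, eBayes) was fitted to the 23 sorted arrays and, for comparisons with whole samples, to all 35, with no covariate and Benjamini-Hochberg adjustment over all genes. The procedure was first tested on simulated data. The number of arrays limits the precision.

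Genes named in the text were the complex IV isoform genes, the core subunits, and in each comparison the called member with the largest difference in each direction per complex. Some results under this rule are not reported here. Atp5md between whole liver and whole intestine, and Ndufaf7 where it was not called, were named after their values were seen. Members, lists and tests were chosen with earlier results of these data known. Summed marker levels are log2 of the sum of scaled signals. Alternatives were the deposited values, normexp correction (offset 50), scaling over all probes, no filter or a stricter filter, the mean of a gene's probes, slide as a block, and each array left out.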

Additional observations from a re-analysis of the deposited data

Results flagged for a closer look

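For 43 named members in the 4 sorted groups, 1 array stood apart from the others by Dixon's test at the 95% level in 20 of 172 cases. For a single case chance gives about 1 in 20. The members were read on the same arrays and are not independent, so the share of cases is not a test against chance. The values below are log2 levels on the sorted-cell scale.

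Lung Trm 5 accounted for 10 of them, each time as the lowest of 6: Ndufs1 at -3.63 (others -2.63 to -2.22), Ndufs3 at -1.81, Ndufs7 at -1.18 and Ndufv1 at -1.76 in complex I, Sdha at -4.22, Sdhb at -0.89 and Sdhc at -2.94 in complex II, and Cyc1 at -3.08, Uqcrc1 at -3.96 and Uqcrc2 at -0.93 (others -0.02 to 0.08) in complex III. All 10 probes were well above background there, and no complex IV or V gene was among them. Liver Trm 5 was the highest of 5 for Ndufv1 at -0.62, Cox7b at -0.20 and Cox7c at -1.40.

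Single cases were Ndufa10 at -6.97 in intestine Trm 2 and at -7.37 in blood Tem 3, Sdhd at -3.43 in blood Tem 3, Cox7a2l at 0.69 in blood Tem 2 and Cox7a1 at -8.61 in lung Trm 6, all lowest of their group. Cox6a2 at -4.15 in intestine Trm 3 and Atp5j2 at 0.25 in intestine Trm 6 were the highest of theirs.

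The difference between Trm cells and their whole organ itself differed between organs, by an interaction contrast in limma, for 32 members between intestine and lung, 16 between liver and lung and 1 between intestine and liver.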

How the results depend on the processing

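Counts of members called (higher plus lower) are given in the order of the report. With the deposited values they were 10 in liver Trm against blood Tem, 4 in intestine Trm against blood Tem, 13 in lung against liver Trm, 3 in intestine against liver Trm, 4 in intestine against lung Trm, 27 in lung Trm against whole lung and 5 in whole liver against whole intestine. With normexp they were 2 in intestine Trm against blood Tem, 1 in intestine against lung Trm, 25 in lung Trm against whole lung, 50 in intestine Trm against whole intestine, 29 in whole liver against whole lung and 21 in whole liver against whole intestine. With scaling over all probes they were 53 in liver Trm and 5 in intestine Trm against blood Tem, 29 in lung against liver Trm, 1 in intestine against lung Trm, 10 in liver Trm against whole liver, 10 in whole liver against whole lung and 27 in whole liver against whole intestine. Between liver Trm and blood Tem, probes never above background differed by 1.33, liver Trm being the higher. With no filter they were 11 in liver Trm against blood Tem, 9 in lung and 0 in intestine against liver Trm, and 4 in whole liver against whole intestine. The stricter filter gave 3 in intestine Trm against blood Tem and the mean of all probes 6 in whole liver against whole intestine.

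Without the 4 arrays, chosen after seeing the data, they were 2 in liver Trm against blood Tem, 0 in intestine against liver Trm, 1 in intestine against lung Trm, 49, 33 and 72 in liver, lung and intestine Trm against their organs, 48 in blood Tem against whole PBMC, 46 and 14 in whole liver against whole lung and whole intestine, and 71 in whole intestine against whole lung. With 1 array left out they ranged over 2 to 10 (liver Trm), 0 to 0 (lung Trm) and 1 to 3 (intestine Trm) against blood Tem, 0 to 11 (lung) and 0 to 2 (intestine) against liver Trm, 0 to 3 in intestine against lung Trm, 5 to 62 (liver), 5 to 27 (lung) and 9 to 73 (intestine) for Trm against organ, 41 to 82 for blood Tem against whole PBMC, and 5 to 51, 1 to 15 and 17 to 66 for whole liver against lung, whole liver against intestine and whole intestine against lung. Where causes are not named, the cause was not tested.

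Cox8a in blood Tem against whole PBMC was reversed (-0.15 without the 4 arrays, and -0.089 to 1.80 with 1 array left out, the lowest without whole PBMC 1). Of 1022 values for named genes under the other settings, 942 kept direction and call and 79 lost the call; of 4300 with 1 array left out, 4045 and 254 did.

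Slide carried the replicate number among the sorted arrays. Deviations of arrays on 1 slide had a median correlation of -0.01 (-0.36 to 0.44, over 0.1 in 6 of 33 pairs). These values cannot show whether arrays of the same number came from the same animals, which the labels do not say. With slide as a block, lung against liver Trm had 2 members called, and 219 of all 225 calls were kept and 6 lost. For comparisons with whole samples slide was a random block, with a consensus correlation of -0.03. Dim probes such as Cox4i2, Cox8b, Ndufa4l2 and Cox6b1 are limited by the detection level, as the bounds state.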
